A study of Mus musculus with 14 samples.

Results

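The 10 genes described here are the Period genes Per1, Per2 and Per3, the cryptochrome Cry2, the PAR bZIP genes Dbp, Tef and Hlf, and 3 further repressors of the clock, Ciart, Bhlhe40 and Bhlhe41. They were taken by gene name from the 54532 genes of the deposited count table, and all 10 were among the 13846 genes that passed the filter on low counts. RNA came from the ileum mucosa of 14 male mice with 1 library per mouse, 7 wild-type (WT) and 7 lacking nuclear receptor corepressor NCoR1 in intestinal epithelial cells (IKO). All mice carried floxed NCoR1 alleles, and IKO mice in addition carried Cre recombinase under the villin promoter, which is active throughout the intestinal epithelium, so that other cells of the mucosa kept the gene. The mice were kept on a high fat diet (HFD) with 60% of its energy from fat for 15 weeks, under 12 h of light and 12 h of dark. Descriptions of their age differ, with 7 to 8 weeks at the start of feeding in one place and 9 weeks followed by 3 weeks of chow before the HFD in another. The time of day at which tissue was taken is not given in the sources used here.

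In the mammalian clock, a heterodimer of BMAL1 (encoded by Arntl) and CLOCK or NPAS2 binds E-boxes and drives the Period and cryptochrome genes, whose proteins then repress that heterodimer. The nuclear receptors REV-ERB (Nr1d1, Nr1d2) and ROR compete for a separate element in Arntl and related genes, and REV-ERB represses through NCoR1. Dbp, Tef and Hlf encode the PAR bZIP factors, which carry the rhythm to output genes by binding D-boxes, where NFIL3 acts as a repressor. CIART and the basic helix-loop-helix proteins BHLHE40 (DEC1) and BHLHE41 (DEC2) repress transcription driven from E-boxes. The levels of these transcripts vary over the day in most tissues, the intestine included.

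Promoter sequences from RefSeq (mouse build GRCm38.p6) were found for 8 of the 10 genes, in 10 windows of 300 bases that run from 250 bases before to 50 bases after a start site. Entries for Per2 and Bhlhe40 were missing. The E-box CACGTG was found 3 times in the Ciart window, beginning 116, 58 and 44 bases before the start, and once each in 1 of the windows of Per1, both windows of Tef, and the window of Bhlhe41. Of all 32851 promoters of the table, 7.15% held at least 1 E-box and 29 held 3 or more. The D-box, searched as TTATGTAA or TTACGTAA, was found in the Per3 window alone among these genes, beginning 205 and 158 bases before the start. It was present in 1.06% of all promoters, and 8 held it at least 2 times. The cyclic AMP response element TGACGTCA, present in 1.79% of promoters, began 9 bases before the start of Hlf, and the REV-ERB and ROR element TAGGTCA, present in 2.61%, was found in none of the 10 windows. Both strands were searched, the 4 motifs do not overlap each other, and a match describes letters and not a binding site. The Per3 and Ciart promoters are shown since they hold the repeated motifs, in capitals. Both genes lie on the minus strand, and the sequences, read 5′ to 3′ on that strand, are the parts of the windows upstream of both the RefSeq start and the deposited gene model, at chr4:151044666-151044915 for Per3 and chr3:95882252-95882478 for Ciart.
Per3: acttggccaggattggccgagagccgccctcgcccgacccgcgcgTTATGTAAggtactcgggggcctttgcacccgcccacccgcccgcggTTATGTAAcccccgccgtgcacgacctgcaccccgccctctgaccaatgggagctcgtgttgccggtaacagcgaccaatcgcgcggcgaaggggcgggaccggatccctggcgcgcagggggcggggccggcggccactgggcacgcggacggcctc
Ciart: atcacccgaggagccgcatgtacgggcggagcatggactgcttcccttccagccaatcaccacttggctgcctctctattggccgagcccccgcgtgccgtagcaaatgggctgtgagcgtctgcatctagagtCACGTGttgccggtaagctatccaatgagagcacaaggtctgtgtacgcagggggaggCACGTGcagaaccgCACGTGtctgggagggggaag

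Between 14749669 and 21557468 counts per library fell on genes. Levels are given as CPM, counts scaled to a common library size with TMM factors. Ncor1 itself was at 106.4 CPM in the lowest, 129.7 in the median and 194.5 in the highest WT mouse, and at 31.7, 47.7 and 63.95 CPM in the IKO mice. No value overlapped, and Ncor1 fell by 1.41 on the log2 scale (standard error 0.18, edgeR adjusted p = 0.00051). Libraries stood apart in several ways. Mitochondrial genes took 50.3% of counts in IKO 4 and 23.9% in WT 3, against 3.49% to 10.3% in the other 12. Summed CPM of 7 smooth muscle markers was 11100 in WT 4, 829 in IKO 1 and 398 in IKO 2, against 4.76 to 64.3 in the other 11. Summed CPM of 7 epithelial markers ran from 12300 to 21400 in WT and from 21300 to 25000 in IKO mice, with a positive log2 fold change for all 7 markers of which 0 passed the test. Single markers did not all follow the sum. Epcam was at 505.4 CPM in IKO 4 and 1095 CPM in IKO 2, against 2830 to 3166 CPM in the other IKO mice. Cdh1 was at 249.9 CPM in IKO 4 and 573.2 CPM in IKO 2, against 1090 to 1257 CPM. Krt20 was also lowest in IKO 4 and IKO 2 among IKO mice, while Cdx2 and Lgals4 were highest in them. In bulk tissue, fewer cells of a type and less RNA per cell cannot be told apart.

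To see whether the deletion shifted the negative limb and the output of the clock, each gene was compared between the genotypes. Bhlhe40 was higher in IKO mice by a factor of 2.02, and it was the 1 gene of the 10 that passed an adjusted p of 0.05 in edgeR's quasi-likelihood test, where 8.67% of all 13846 genes tested were called, 4.38% as higher and 4.28% as lower. The 9 others did not pass, so that 0 of 10 were lower, and 3 of the 10 were under an unadjusted p of 0.05, as were 4213 of all genes tested. The median log2 fold change over the 10 genes was 0.07, beside -0.09 over all genes tested. Log2 fold changes are given as IKO over WT throughout, and exact permutation tests cover all 3432 divisions of the 14 mice into 7 and 7, two-sided, with 0.000583 as the smallest p they can give.

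**Figure D1:**
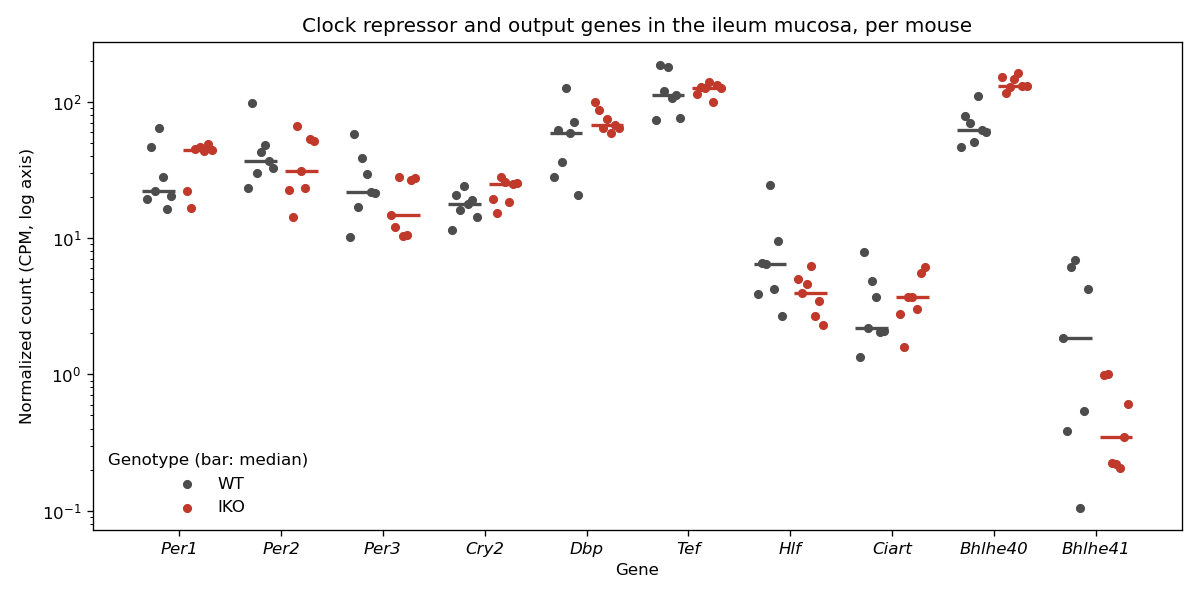
Normalized counts (CPM, log axis) of the 10 genes in each mouse, with WT in gray, IKO in red and a bar at each median. Bhlhe40 is the 1 gene whose WT and IKO points do not overlap, and the WT points of Dbp, Tef and Hlf spread more widely than the IKO points.

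The Period proteins are the repressors that accumulate and shut off BMAL1 and CLOCK in each cycle. Per1 was at 16.2 CPM in the lowest, 21.95 in the median and 63.5 in the highest WT mouse, and at 16.6, 44.0 and 48.7 CPM in the IKO mice. The groups overlapped fully at the low end. In IKO mice, 5 of 7 lay together between 43.7 and 48.7 CPM, while IKO 1 and IKO 2, the mice with smooth muscle markers, stood at 21.9 and 16.6 CPM. Between genotypes Per1 differed by 0.30 on the log2 scale, IKO over WT (standard error 0.33, edgeR adjusted p = 0.56, exact permutation p = 0.314).

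Per2 ranged from 23.3 to 96.9 CPM in WT mice (median 36.7) and from 14.3 to 65.8 CPM in IKO mice (median 31.2). Values of both genotypes were interleaved, with WT 2 highest and IKO 2 lowest of all 14. The log2 fold change of -0.25 (standard error 0.36, edgeR adjusted p = 0.67, exact permutation p = 0.485) became 0.0254 without IKO 1 and IKO 2, so its sign is not fixed.

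Per3, on chromosome 4 from 151003652 to 151044665, was at 10.2, 21.8 and 58.0 CPM in the lowest, median and highest WT mouse and at 10.3, 14.8 and 28.0 CPM in the IKO mice. The lowest mice of both genotypes were level, and WT 2, WT 4 and WT 5 lay above every IKO mouse. For Per3 this gave a log2 fold change of -0.60 (standard error 0.36, 95% confidence interval -1.36 to 0.17, edgeR adjusted p = 0.27, exact permutation p = 0.202). Camta1 overlaps Per3 on the same strand and had 26 to 325 counts per library, beside 94 to 901 for Per3, and the shared stretch may affect the counts of Per3.

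Cry2, the cryptochrome that acts beside the Period proteins, ran from 11.5 to 24.0 CPM in WT mice (median 17.7) and from 15.2 to 27.9 CPM in IKO mice (median 24.96). Of the IKO mice, 6 of 7 were above the WT median, but the ranges overlapped. Its log2 fold change of 0.34 (standard error 0.18, edgeR adjusted p = 0.22, exact permutation p = 0.0758) did not pass in either test.

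Bhlhe40, induced by many stimuli besides the clock, rose in IKO mice. Its level was 46.5 CPM in the lowest, 62.0 in the median and 110.5 in the highest WT mouse, and 115.3, 129.9 and 163.2 CPM in the IKO mice. Every IKO mouse was above every WT mouse, which held for 3.1% of all genes tested in either direction, for 1.83% with IKO higher and for 1.26% with IKO lower. The log2 fold change was 1.01 (standard error 0.18, fold 2.02 with a 95% confidence interval of 1.54 to 2.65, edgeR adjusted p = 0.0061, exact permutation p = 0.000583). Bhlhe40 lies on chromosome 6 from 108660629 to 108666925, and the antisense gene 0610040F04Rik that overlaps it had at most 14 counts in any library, against at least 1025 for Bhlhe40.

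Its paralog Bhlhe41 was low and went the other way. It was at 0.10, 1.84 and 6.84 CPM in the lowest, median and highest WT mouse (2 to 144 counts) and at 0.21, 0.34 and 1.00 CPM in the IKO mice (2 to 17 counts). WT 1, WT 3, WT 4 and WT 7 lay above every IKO mouse, while WT 2 and WT 6 were within the IKO range and WT 5 was below it. The log2 fold change of -2.45 (standard error 0.77) had an edgeR adjusted p of 0.0556 and an exact permutation p of 0.0798. This call turned with the setting: DESeq2 gave -2.43 with an adjusted p of 0.0131, and edgeR gave an adjusted p of 0.0394 without WT 2, 0.0302 without WT 5 and 0.0459 without WT 6, the 3 WT mice with the lowest Bhlhe41. The same 4 WT mice with high Bhlhe41 had the 4 highest sums of 6 stromal markers among WT mice (28.7, 44.2, 354 and 62.9 CPM in WT 1, WT 3, WT 4 and WT 7, against 9.66, 6.28 and 13.9 CPM in WT 2, WT 5 and WT 6). In IKO mice the stromal sum ran from 8.32 to 44.7 CPM, and 0 of the 5 stromal markers tested passed, all 5 with a negative log2 fold change. The part of stromal cells in the Bhlhe41 values was not tested.

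Ciart, also called CHRONO, ran from 1.35 to 7.92 CPM in WT mice (median 2.17) and from 1.59 to 6.08 CPM in IKO mice (median 3.66), with 27 to 123 counts per library. The ranges nearly coincided, and WT 2 was highest and WT 1 lowest of all 14. On the log2 scale Ciart differed by 0.13 between genotypes (standard error 0.40, edgeR adjusted p = 0.85, exact permutation p = 0.56).

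Among the PAR bZIP genes, Dbp was at 20.7 CPM in the lowest, 58.5 in the median and 126.2 in the highest WT mouse, and at 58.9, 67.3 and 99.85 CPM in the IKO mice. All 7 IKO mice exceeded the WT median, with WT 4 highest of the 14 and IKO 1 and IKO 2 highest among IKO mice. The log2 fold change was 0.36 (standard error 0.32, edgeR adjusted p = 0.46, exact permutation p = 0.135), and it ran from 0.196 without WT 7 to 0.685 without WT 4, which did not pass either. Sphk2 overlaps Dbp on the opposite strand with 811 to 2116 counts per library. Since no source used here states that counting used strand, reads of the 2 genes may not be fully told apart.

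Tef, its close relative, had medians of 111.8 CPM in WT (73.1 to 186.8) and 126.2 CPM in IKO mice (98.96 to 139.7). The IKO range lay wholly inside the WT range. Between genotypes the log2 fold change was 0.02 with a 95% confidence interval of -0.43 to 0.47 (edgeR adjusted p = 0.96, exact permutation p = 0.648).

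Hlf ran from 2.69 to 24.6 CPM in WT mice (median 6.46) and from 2.29 to 6.23 CPM in IKO mice (median 3.95). None of the 7 IKO mice reached the WT median, and WT 4 stood far above the other WT mice, which were at 9.56 CPM or lower. The log2 fold change was -1.04 (standard error 0.43, edgeR adjusted p = 0.12, exact permutation p = 0.109) and -0.467 without WT 4, the mouse with the most smooth muscle, stromal and enteric neuron marker RNA (edgeR adjusted p = 0.35).

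Levels can be ranked between genes only per length, for which the deposited FPKM were used. In WT mice the order of mean FPKM was Dbp (18.8 ± 11.6, SD, n = 7), Tef (15.1 ± 5.61), Bhlhe40 (14.2 ± 4.51), Per2 (7.40 ± 4.10), Per1 (5.36 ± 3.05), Per3 (2.85 ± 1.62), Cry2 (2.73 ± 0.65), Ciart (1.49 ± 0.99), Hlf (1.21 ± 1.10) and Bhlhe41 (0.41 ± 0.41). Every pair of neighbours in this order overlapped in range across WT mice. In IKO mice Bhlhe40 came first at 29.3 ± 3.61 FPKM (SD, n = 7), ahead of Dbp at 24.7 ± 4.81, Tef at 15.8 ± 1.72 and Per1 at 6.77 ± 2.33. Bhlhe40 was above Dbp in 5 of 7 IKO mice, and the ranges of Dbp and Tef, of Tef and Per1, and of Hlf (0.60 ± 0.21) and Bhlhe41 (0.076 ± 0.053) did not overlap, while the other neighbours did.

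The other genes of the clock were taken from a list of 20, of which 19 were tested and Rorb was not. In IKO mice 6 were higher and 1 was lower at an edgeR adjusted p under 0.05, and the median log2 fold change was 0.12. The activators Arntl (log2 fold change 1.77, adjusted p = 0.0032) and Npas2 (1.47, adjusted p = 0.0025), REV-ERBα (Nr1d1, 1.66, adjusted p = 0.0034) and the D-box repressor Nfil3 (2.59, adjusted p = 7.6e-05) rose, and each of these 4 had no overlap between the genotypes. They passed in each of 25 alternative settings. Cry1 (0.61, adjusted p = 0.035), the other cryptochrome, and the deubiquitinase Usp2 (0.75, adjusted p = 0.037) also rose, and Rora fell (-2.11, adjusted p = 0.035). These 3 calls were lost in 12 of 25, 12 of 25 and 13 of 22 alternatives. Clock itself had a negative log2 fold change and did not pass. Among the 10 genes the call for Bhlhe40 was kept in all 25 alternatives.

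**Figure D2:**
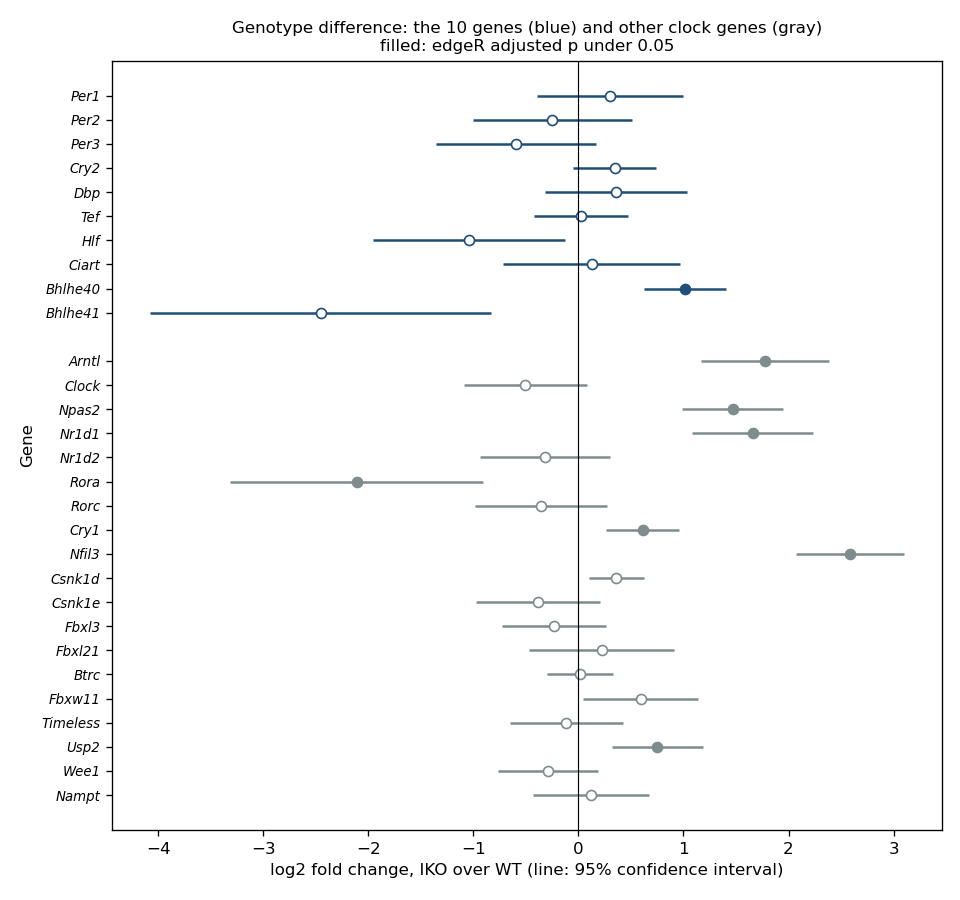
Log2 fold change of IKO over WT (x axis) with its 95% confidence interval for the 10 genes (blue) and 19 other clock genes (gray), filled where the edgeR adjusted p was under 0.05. Bhlhe40 at 1.01 is filled among the 10, and Nfil3 at 2.59, Arntl at 1.77 and Nr1d1 at 1.66 lie farthest to the right.

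Genes known as PAR bZIP targets, many of them in drug and heme metabolism, were examined as a list of 8, of which 7 were tested. Alas1, the rate-limiting enzyme of heme synthesis, rose with no overlap from a median of 88.0 CPM in WT (65.4 to 131.7) to 259.7 CPM in IKO mice (209.1 to 372.6). Its log2 fold change was 1.55 (standard error 0.20, edgeR adjusted p = 0.00055). It was the 1 gene of 7 that passed, and the list had a median log2 fold change of 0.49. Of the 7, 3 were under an unadjusted p of 0.05, beside 4213 of all 13846 genes tested. Alas1 passed in all 25 alternatives, over which 1 to 3 genes of the list passed, with 3 when IKO 4 was left out. Per1 and Bhlhe40 also respond to stimuli outside the clock, so 2 further lists were counted. None of 10 immediate early genes passed in edgeR. Of these, 4 were under an unadjusted p of 0.05, as were 4213 of all 13846 genes tested. The 4 were Egr1, Nr4a1, Sik1 and Crem, all with a negative log2 fold change. In this list 1 gene passed with DESeq2 and with edgeR on genes of at least 10 counts in every library. Of 7 tested genes induced by glucocorticoids 6 had a positive log2 fold change, with a median of 0.84, and 5 were under an unadjusted p of 0.05. The kinase Sgk1 was the 1 that passed (log2 fold change 1.27, edgeR adjusted p = 0.036), a call that was lost in 16 of 25 alternatives, over which 0 to 3 genes of the list passed.

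Mice of the same genotype differed widely in these genes. The standard deviation of log2 CPM within genotype had a median of 0.705 over the 10 genes, beside 0.517 over all genes tested. Bhlhe41, at the 96.8th percentile of all genes tested, varied most, and Bhlhe40, at the 17.9th, varied least. In 9 of the 10 genes the standard deviation was larger in WT than in IKO mice, which held for 57.2% of all genes tested. For Dbp it was 0.88 in WT and 0.28 in IKO mice, for Tef 0.53 and 0.17, and for Bhlhe40 0.42 and 0.17. Per2 was the exception, with 0.66 in WT and 0.80 in IKO mice. No test of these differences in spread was made.

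Whether the genes moved together from mouse to mouse was examined within each genotype, since a genotype difference would otherwise make a correlation. The 45 pairs of the 10 genes had a median Pearson r of log2 CPM of 0.638 in WT mice, with 37 positive, and of 0.0388 in IKO mice, with 24 positive. At n = 7 per genotype, exact permutation over all 5040 pairings left 17 WT and 10 IKO pairs under an unadjusted p of 0.05 and 0 of the 90 after Benjamini-Hochberg adjustment. Per1, Per2, Per3, Cry2 and Ciart, grouped after their correlations were seen, had r of 0.648 to 0.968 over their 10 pairs in WT and of 0.38 to 0.935 in IKO mice. Single mice weigh on these values, as r of Per1 with Cry2 in WT mice was 0.723 and fell to 0.0756 without the 2 mice farthest from the median of Per1. The repressors Bhlhe40 and Bhlhe41 stood outside this group. With the genes of the group, r of Bhlhe40 ran from 0.0658 (Per1) to 0.537 (Per2) in WT and from -0.459 to 0.306 in IKO mice. That of Bhlhe41 ran from -0.515 to 0.0863 in WT and from -0.849 to -0.0206 in IKO mice. Tef was not put in the group, but its r with the same genes was 0.76 to 0.903 in WT and 0.0995 to 0.459 in IKO mice. Per3 and Ciart, the genes whose promoters are printed above, had the highest r of the 45 pairs in WT mice, 0.968 (rho = 0.857, exact permutation adjusted p = 0.0714 for r and 0.256 for rho). Per2 was close, with r = 0.939 to Ciart and 0.937 to Per3. Without the 2 WT mice farthest from the median of Per3, r of Per3 with Ciart was 0.926. In IKO mice the same pair had r = 0.669 (rho = 0.357, exact permutation adjusted p = 0.287 for r). All values of a mouse come from 1 library, so its composition and scaling are shared by every pair.

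**Figure D3:**
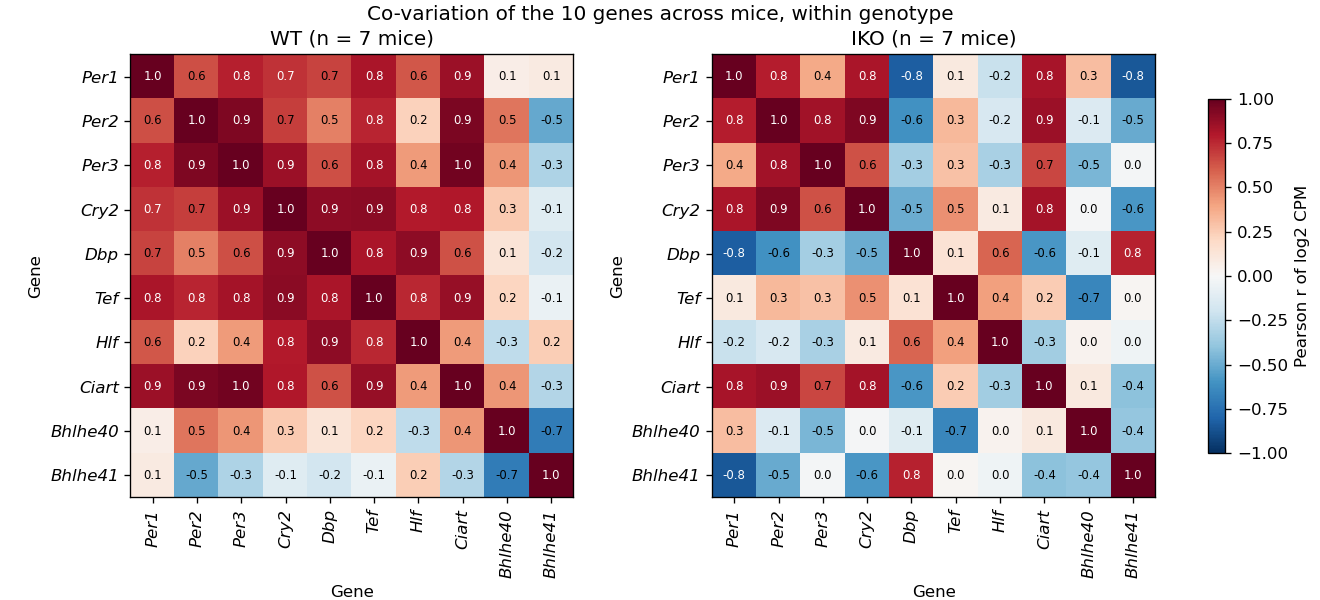
Pearson r of log2 CPM (color and number, from -1 to 1) between each pair of the 10 genes across 7 WT mice (left) and 7 IKO mice (right). The block of Per1, Per2, Per3, Cry2 and Ciart is red in both panels, while the row of Dbp is mostly red in WT and mostly blue in IKO mice, where Hlf and Bhlhe41 are red.

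The relations of the output gene Dbp had mostly positive r in WT mice and mostly negative r in IKO mice. In WT mice its r was 0.896 with Cry2 (rho = 0.929), 0.891 with Hlf (rho = 0.964), 0.818 with Tef (rho = 0.714) and 0.677 with Per1 (rho = 0.429). In IKO mice its r was -0.827 with Per1 (rho = -0.286), -0.603 with Per2 (rho = -0.5) and -0.498 with Cry2 (rho = -0.214), but 0.766 with Bhlhe41 (rho = 0.643), 0.579 with Hlf (rho = 0.714) and 0.147 with Tef (rho = 0.321). Hlf thus had a positive r with Dbp in both genotypes. Of the 18 relations with Dbp, 5 had an unadjusted exact permutation p under 0.05 and 0 an adjusted one, the lowest being 0.0715 for Cry2 and Hlf in WT mice. Leaving out the 2 mice farthest from the median of Dbp gave 0.919 with Cry2, 0.631 with Tef, 0.603 with Hlf and 0.294 with Per1 in WT mice.

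In IKO mice those 2 were IKO 1 and IKO 2. Without them r with Dbp became positive for Per1 (0.593) and Cry2 (0.576), close to 0 for Per2 (0.0846), Ciart (0.184) and Bhlhe41 (-0.0798), and higher for Tef (0.874) and Hlf (0.774). It stayed negative for Per3 (-0.341 with and -0.155 without these mice) and Bhlhe40 (-0.124 and -0.24). The negative relations of Per1 and Cry2 and the positive one of Bhlhe41 thus rest on IKO 1 and IKO 2, which had the highest Dbp, the lowest Per1 and the lowest Arntl of their genotype. They were also the IKO mice with smooth muscle markers. Across IKO mice the summed smooth muscle CPM had r = 0.943 with Dbp (rho = 0.643) and -0.92 with Per1 (rho = -0.75), and after adjustment over 20 relations 0 passed (exact permutation adjusted p = 0.103 for Dbp and 0.175 for Per1). Without the 2 mice farthest from the median of that sum, r was 0.569 for Dbp and -0.149 for Per1. Across WT mice r was 0.407 for Dbp (rho = -0.107) and 0.645 for Per1 (rho = 0.286). Without the 2 farthest WT mice r was -0.923 for Dbp and -0.0762 for Per1. None of the 6 smooth muscle markers tested passed between the genotypes, and all 6 had a negative log2 fold change.

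The activator Arntl, which is expressed in antiphase to the Period genes and Dbp in most tissues, was set against the 10 genes in the same way. This partner was chosen after the values had been seen, and the adjustment covers its 20 relations alone. Arntl was at 2.33, 6.70 and 10.7 CPM in the lowest, median and highest WT mouse and at 11.02, 26.8 and 30.9 CPM in the IKO mice, with IKO 2 and IKO 1 the lowest of these. In WT mice the relation with the lowest p was Dbp at r = -0.874 (rho = -0.929, exact permutation adjusted p = 0.0278 over 20 relations for r and 0.0675 for rho), and r was -0.978 without the 2 mice farthest from the median of Arntl. Dbp kept the sign in IKO mice at r = -0.702 (rho = -0.714, exact permutation adjusted p = 0.116). The other relation that passed was Bhlhe41 in IKO mice (r = -0.789, rho = -0.964, exact permutation adjusted p = 0.00794 for r and 0.0556 for rho), at 2 to 17 counts per library, with r = -0.68 without IKO 1 and IKO 2.

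Per1 had r = -0.781 with Arntl in WT mice (rho = -0.429) and 0.918 in IKO mice (rho = 0.5), with exact permutation adjusted p of 0.101 and 0.0792. The IKO mice fell into the 5 with high Per1 and the 2 with low Per1, and among the 5 the r was -0.526, for which no test was run. In WT mice r was -0.308 without WT 1 and WT 4.

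**Figure D4:**
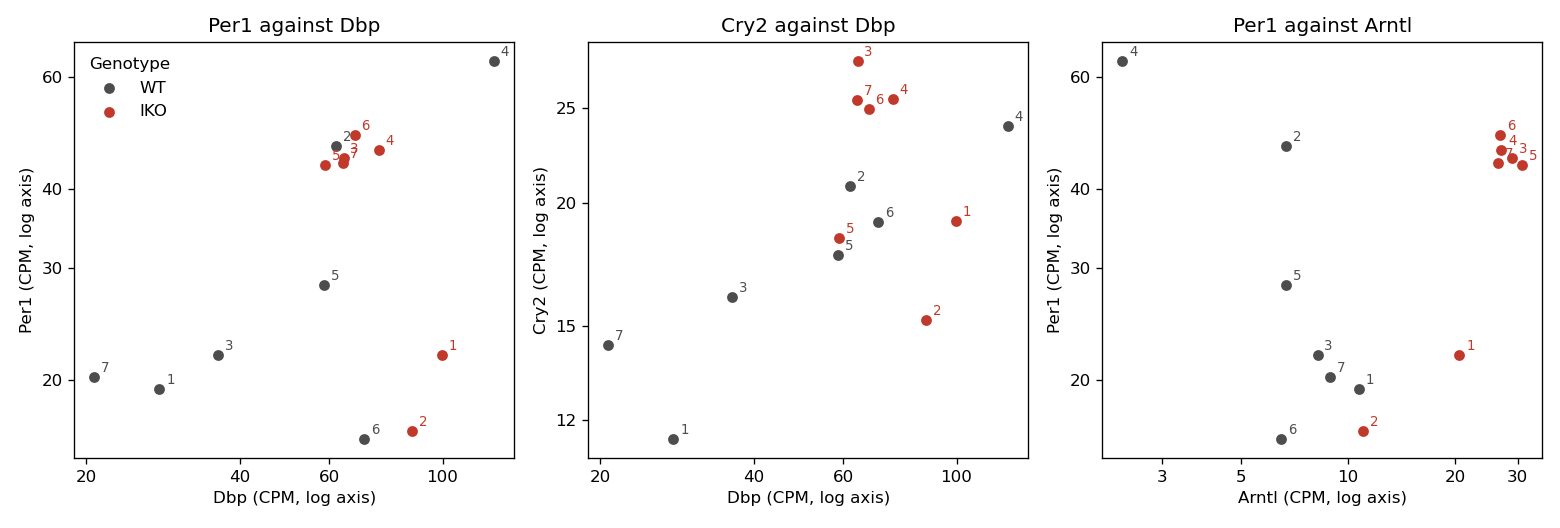
Per1 against Dbp, Cry2 against Dbp and Per1 against Arntl, in CPM on log axes, with each point a mouse numbered within its genotype (WT gray, IKO red). IKO 1 and IKO 2 lie away from the other 5 IKO mice in all 3 panels, and WT 4 is at an end of the WT points.

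Genes most like Dbp and Per3 from mouse to mouse were ranked by Pearson r of log2 CPM with genotype means removed, over 14 mice and 11260 genes with a mean log2 CPM of at least 1. For Dbp the highest were Yap1 (0.896), Ckb (0.891), Arhgef7 (0.851), Fam76a (0.85), Zfand3 (0.838) and Hibadh (0.834), and the lowest were Plcg2 (-0.924), Psd4 (-0.924), Pik3r5 (-0.921) and Pik3cg (-0.918). Of these, Plcg2, Pik3r5 and Pik3cg encode signaling proteins best known in blood cells, and the sum of 6 immune markers was lowest in IKO 1 (130.0 CPM) and WT 4 (145.0 CPM), the mice with the highest Dbp of their genotype. Across the other 12 mice that sum ran from 332.0 to 828.0 CPM. Jchain, the largest of the 6 markers in every mouse, was at 74.42 CPM in IKO 1 and 59.6 CPM in WT 4. The other markers were mixed. In IKO 1, Cd79a and Lyz2 were lowest among IKO mice, but Cd3e was highest (9.82 CPM). In WT 4, Ptprc was lowest among WT mice, but Cd79a (23.75 CPM) and Lyz2 (26.79 CPM) were at the WT median. The part of immune cells in these correlations was not tested. For Per3 the highest were Rufy3 (0.915), Gm10425 (0.894), Zfp950 (0.879), Snrnp48 (0.874), Mgea5 (0.873) and the splicing kinase Clk1 (0.872), and the lowest were Capn5 (-0.905), the translation elongation factors Eef2 (-0.898) and Eef1a1 (-0.895), and Gm45855 (-0.884). No other gene of the 10 was eligible for these rankings.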

How the data were processed

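RNA sequencing of 14 ileum mucosa samples (7 WT and 7 IKO, assigned from the sample titles, with files that name IKO samples KO) was analyzed. The authors deposited whole-number read counts per gene without normalization, made with HISAT2 2.0.5 and featureCounts 1.5.0-p3 on mm10 per the submitters' processing notes, which also name DESeq2 1.16.1. The reads were 150 bases long. Whether counting used strand is not given in the sources used here. The deposited FPKM of the authors are scaled by gene length.

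In R 4.3.3, counts were filtered with filterByExpr, scaled by TMM, and tested in edgeR 4.0.16 (quasi-likelihood, genotype only, Benjamini-Hochberg over 13846 genes). CPM use TMM factors, and log2 CPM add a prior count of 2. The code was tested on simulated data. Depth was 14749669 to 21557468 counts per library, and counting error is small beside the spread between mice except for Bhlhe41. Correlations used exact permutation of 5040 pairings, and those with Arntl were added after the values had been seen. Differences in correlation between genotypes used all 3432 divisions of mice whose log2 CPM had been set to mean 0 and SD 1 within genotype. Since that scaling used the observed genotypes, the p of this test is approximate and not exact. This test was added after the correlations had been seen. It was first run with means removed only, when 5 of 19 relations passed, and the scaled form, in which 1 passed, replaced it after that result was seen, since the SD of Dbp differed between genotypes.

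The sample labels do not say whether same numbers in both genotypes pair mice, and the main fit used no pairing. The residual correlation of same-numbered mice ran from -0.305 to 0.232 and was over 0.1 in 1 of 7 pairs. Alternatives were RLE factors, DESeq2 1.42.0, no filter, a minimum of 10 counts in all samples, limma 3.58.1 on log2 FPKM with pseudocounts of 1 and 0.1 (genes over 0.5 in at least 7 samples, or unfiltered), the replicate block, exclusion of mitochondrial genes, of WT 3, WT 4 and IKO 4, and of each mouse. Exclusion of IKO 1 and IKO 2 was added after the data were seen. Named were the 10 genes, Ncor1, Arntl, Nr1d1, Cry1, Nfil3, list genes that passed, and the 6 highest and 4 lowest correlates of Dbp and Per3. The genes, lists and tests were chosen with earlier results of these data known.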

Additional observations from a re-analysis of the deposited data

Results flagged for a closer look

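The relation of Per1 to Arntl passed a test of its difference between the genotypes. Arntl and this test were both chosen after the values had been seen, a choice that the adjustment does not cover. The Pearson r was -0.781 in WT (rho = -0.429) and 0.918 in IKO mice (rho = 0.5). Without IKO 1 and IKO 2 the r of IKO mice was -0.526, of the same sign as in WT mice. The difference over all mice was -1.7 (WT minus IKO, permutation p = 0.00117, adjusted p = 0.0222 over 19 relations). Per1 with Arntl was the 1 relation of 19 that passed, with 7 under an unadjusted p of 0.05. The adjusted p was not under 0.05 without any 1 of WT 1 (0.0553), WT 4 (0.182), WT 5 (0.0665), IKO 1 (0.155), IKO 2 (0.409), IKO 3, IKO 4, IKO 6 or IKO 7 (0.0665 each), nor with log2(FPKM + 1) (0.0553). Smooth muscle markers summed to 829 CPM in IKO 1 and 398 CPM in IKO 2, and their part in the difference was not tested. Among the 20 sets of 7 values (10 genes in each genotype), 0 held a mouse beyond the critical value of Dixon's test, where chance gives about 1. Dixon's test looks for 1 isolated mouse and was not run on Arntl. It therefore could not flag IKO 1 and IKO 2, which lay apart together in Per1.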

How the results depend on the processing

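Bhlhe40 passed in every one of the 25 alternatives, with a log2 fold change of 0.927 to 1.17 and an adjusted p of 9.31e-06 to 0.0352, and Per1, Per3, Cry2, Dbp and Hlf kept their direction and did not pass in any. With the replicate block, 362 genes of all tested passed in place of 1200, and 4 genes of the clock list in place of 7. The count over all genes was 2444 with DESeq2, 508 without a filter, 433 without WT 3, WT 4 and IKO 4, 338 without IKO 1 and IKO 2, and 515 (without IKO 5) to 1371 (without WT 2) with each mouse left out. Of the 10 genes 2 passed with DESeq2, and 1 to 2 with each mouse left out. The clock list gave 4 without a filter and without WT 3, WT 4 and IKO 4, and 4 to 7 with each mouse left out. Higher and lower calls, 607 and 593 here, became 346 and 162 without a filter, 530 and 689 with at least 10 counts, 774 and 295 with limma on log2(FPKM + 1), and 226 and 136 with the block. Without a filter the median log2 fold change of all genes was -0.324. The sign of Tef turned with at least 10 counts (-0.0341) and with a mouse left out (-0.0867 to 0.157), that of Per2 without IKO 1 and IKO 2 (0.0254) and with a mouse left out (-0.455 to 0.0711), and that of Ciart with a mouse left out (-0.0266 to 0.478). Relations with Dbp that passed numbered 0 to 1 with a mouse left out, the 1 being without WT 5. Differences in correlation that passed numbered 5 with means removed only, 0 with log2(FPKM + 1), and 0 to 6 with a mouse left out, 6 being without IKO 5. The cause of these changes was not tested. With 7 mice a genotype the 95% confidence interval of Dbp ran from -0.32 to 1.04, so shifts within it were not excluded, and the 2 to 17 counts of Bhlhe41 in IKO mice limit its fold change.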
